A study of Mus musculus with 16 samples.

Results

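Ribosome biogenesis and nucleolar genes encode the machinery that makes ribosomes: RNA polymerase I and its initiation factor, the small nucleolar ribonucleoproteins (snoRNPs) that modify ribosomal RNA, the chaperones and scaffold proteins of the nucleolus, and the assembly factors of the small (40S) and large (60S) subunits. The 43 genes described here were taken from a gene count table of mouse ear skin by symbol, from a list that holds these factors and Myc. Of the 48440 genes in the table, 17604 had enough counts to be tested, and all 43 genes were among them, each with 1 gene identifier. The rule uses gene symbols and no measured value, but the list was chosen with earlier results of these data known.

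Bulk RNA-seq was done on the ear skin of 16 B6 mice, 4 in each of 4 groups that cross diet with treatment. ND_cont mice had a normal diet and untreated ears, HFD_cont mice had a high-fat diet for 8 weeks and untreated ears, ND_PMA mice had a normal diet and PMA on the ear, and HFD_PMA mice had both. PMA (phorbol 12-myristate 13-acetate) is a plant-derived tumour promoter that switches on protein kinase C and inflames skin. The dose was 200 ng per ear, and ears were taken 24 hours later. The sources used here do not give the age or sex of the mice, the length of the normal diet, or whether untreated ears received the solvent. The labels name no engineered allele.

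Ribosome production starts in the nucleolus, where RNA polymerase I transcribes a long precursor that is folded, cut and chemically modified while ribosomal proteins join it. The transcription factor MYC is known as an activator of many genes of this pathway, through the E-box sequence CACGTG among others, and growing or dividing cells make more ribosomes than resting ones. In skin, the dividing cells are mainly basal keratinocytes and the cells of the growing hair bulb.

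Library totals ran from 7739487 to 15571389 counts, so that 1 CPM (counts per 1000000, scaled here with TMM factors) stood for 7.99 to 15.6 counts. Mitochondrial rows took 1.35% to 3.06% of the counts. All 8 basal keratinocyte markers, 8 suprabasal keratinocyte markers and 8 fibroblast markers had counts, as the labelled tissue requires. The library IDs in the labels begin with RHS in the 4 ND_cont libraries and HFD_cont replicate 1, and with RHP in the other 11, and what the prefix stands for is not given. The PMA effect in ND mice therefore compares RHP with RHS libraries throughout, and the prefix and PMA cannot be told apart there. In untreated skin the prefix goes with diet in all libraries but HFD_cont replicate 1. The diet by PMA interaction takes in the PMA effect in ND mice and so carries the prefix too. Hair genes set 4 libraries apart: HFD_PMA replicate 1 and HFD_cont replicates 1, 2 and 4 had the highest levels of 17 hair matrix and inner root sheath markers. Their summed level ran from 113 to 2924 CPM over HFD_cont and from 87.3 to 3722 CPM over HFD_PMA. It was 37.5 to 77.9 CPM over ND_cont and 27.1 to 209.7 CPM over ND_PMA.

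The summed level of the 43 genes was 2277 ± 73.05 CPM (mean ± SD, n = 4) in ND_cont, 2717 ± 29.7 CPM in HFD_cont, 3481 ± 169.6 CPM in ND_PMA and 3747 ± 112 CPM in HFD_PMA. The lowest and highest libraries were 2168 and 2321 CPM in ND_cont, 2686 and 2758 CPM in HFD_cont, 3253 and 3630 CPM in ND_PMA, and 3601 and 3871 CPM in HFD_PMA. Libraries with PMA were all above libraries without it, untreated HFD libraries were all above untreated ND libraries, and the PMA groups of the 2 diets overlapped. In these bulk samples, more cells of a type and more RNA per cell cannot be told apart.

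Promoters of 4 of the genes are shown because they hold, or lack, the E-box that MYC binds. The RefSeq table (GRCm38.p6) had the 250 bases before and 50 after the start of 37 of the 43 genes, and no entry was matched for Myc, Npm1, Fbl, Bop1, Rrs1 and Rrp12. The letters CACGTG, which read the same on both strands, were in the window of 9 of the 37 genes (24.32%), against 8.09% of all 27025 genes in that table and 10.88% of the 11688 that were tested here. The 9 were Imp4, Ltv1, Mybbp1a, Nle1, Nop2, Pes1, Rrn3, Tsr1 and Wdr43. Among genes that rose with PMA in either diet 7 of 23 held it, and among those that did not 2 of 14. Counted from the start base as 0, it began at -121 in Imp4, -60 in Nop2, and -215 and -48 in Rrn3, the only one of the 9 with a second copy. Elsewhere among the 9 it began after the start, at 2 in Pes1, 17 in Wdr43 and 23 in Nle1. It began at 24 in Tsr1, 28 in Ltv1 and 40 in Mybbp1a. In Nop56, which had the smallest adjusted p of the 43 genes, the window held none. A match of letters is not a measured binding site. The 250 bases upstream of each start follow on the plus strand, 5′ to 3′, with CACGTG in capitals.
Imp4 (chr1:34439579-34439828): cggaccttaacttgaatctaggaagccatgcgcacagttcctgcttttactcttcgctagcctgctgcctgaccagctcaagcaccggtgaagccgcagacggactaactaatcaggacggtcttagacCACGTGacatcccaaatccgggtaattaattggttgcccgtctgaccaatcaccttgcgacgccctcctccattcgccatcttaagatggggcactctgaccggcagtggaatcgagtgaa
Nop2 (chr6:125131633-125131882): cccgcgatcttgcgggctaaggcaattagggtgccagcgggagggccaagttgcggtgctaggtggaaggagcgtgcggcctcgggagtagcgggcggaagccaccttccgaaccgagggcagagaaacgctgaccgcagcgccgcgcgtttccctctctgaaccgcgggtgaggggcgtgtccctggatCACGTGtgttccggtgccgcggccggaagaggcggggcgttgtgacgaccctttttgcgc
Nop56 (chr2:130274162-130274411): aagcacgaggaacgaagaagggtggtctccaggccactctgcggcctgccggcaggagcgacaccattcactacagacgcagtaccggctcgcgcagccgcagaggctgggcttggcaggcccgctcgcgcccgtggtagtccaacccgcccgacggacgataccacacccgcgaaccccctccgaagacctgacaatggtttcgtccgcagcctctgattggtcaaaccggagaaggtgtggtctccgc
Rrn3 (chr16:13780449-13780698): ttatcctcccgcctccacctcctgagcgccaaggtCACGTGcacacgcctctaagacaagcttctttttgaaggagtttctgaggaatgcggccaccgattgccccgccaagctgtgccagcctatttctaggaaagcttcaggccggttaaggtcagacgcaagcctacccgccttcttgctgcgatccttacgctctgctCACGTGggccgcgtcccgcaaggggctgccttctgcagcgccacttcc

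PMA in ND mice raised 25 of the 43 genes and lowered none. Of all genes tested, 8.96% were called higher and 3.99% lower. A gene is called here when its edgeR quasi-likelihood p, adjusted by Benjamini-Hochberg over all 17604 genes, is below 0.05. The median log2 fold change of the 43 genes was 0.55, against 0.00 over all genes, and 43 of 43 were positive. The largest changes were in the 40S assembly factor Bysl (1.13 ± 0.17, log2 ± SE), the H/ACA protein Nhp2 (1.00 ± 0.15), the 60S assembly factors Bop1 (0.96 ± 0.15) and Wdr12 (0.95 ± 0.15) and the chaperone nucleolin, Ncl (0.88 ± 0.18). In 17 members every ND_PMA library was above every ND_cont library, which was so for 10.6% of all genes. With the prefix as a covariate, which HFD_cont replicate 1 alone allows, the median was 0.62 and 3 genes were called, Nhp2, Bop1 and Ftsj3. Calls fell over the whole table in that fit, to 2.2% of all genes called higher. A fit of only ND_cont and ND_PMA called 14 genes, all among the 25, with a median of 0.52 and 6.63% of all genes called higher. Without the 4 libraries richest in hair genes, all from HFD mice and so outside this comparison, the median was 0.52. Calls fell over the whole table in that fit too. Leaving out 1 library at a time gave 16 to 22 calls, beside 6.55% to 7.66% of all genes called higher. The count fell to 16 without ND_cont replicate 3 and to 16 without ND_PMA replicate 3, beside 6.55% and 7.22% of all genes.

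PMA in HFD mice raised 19 of the 43 genes and lowered none, beside 7.34% of all genes called higher and 4.6% lower. The median log2 fold change was 0.47, against -0.02 over all genes, and 41 of 43 were positive, with Fbl and Imp3 the exceptions. The highest values were those of Noc4l (0.83 ± 0.16), Polr1a (0.78 ± 0.19) and Npm1 (0.75 ± 0.16). In 21 members every HFD_PMA library was above every HFD_cont library, which was so for 10.8% of all genes. With only RHP libraries the median was 0.48 and 14 genes were called, beside 6.37% of all genes called higher. Single libraries moved the count, and the share of all genes called higher moved with it. The count was 12 without HFD_cont replicate 2, 8 without HFD_cont replicate 3 and 7 without HFD_cont replicate 4. Beside these, 5.31%, 4.75% and 4.65% of all genes were called higher. It was 12 without HFD_PMA replicate 1 and 8 without HFD_PMA replicate 2, beside 5.49% and 4.22% of all genes. The median of the 43 genes ran from 0.41 to 0.49 over the 8 fits without 1 library. Without the 4 libraries richest in hair genes no member was called, 0.615% of all genes were called higher, and the median of the 43 genes was 0.42. That fit has 1 HFD_cont library, which is assumed to vary like the other groups.

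Both PMA effects called 17 of the same genes, which is 68% of the 25 in ND mice and 89.5% of the 19 in HFD mice. Polr1c, Rrn3, Rrp9, Rrp12, Tsr1, Imp4, Pes1 and Ebna1bp2 were called in ND mice alone, and Ddx21 and Wdr43 in HFD mice alone. The interaction test, given with the diet effects, is the test of a difference between the diets. The 2 effects share no libraries, and across the 43 genes, which are not independent replicates, their log2 fold changes had a Pearson r of 0.65 and a Spearman rho of 0.67. Neither the overlap nor these correlations were worked out over all genes, so neither is shown to be particular to the 43. In 7 of the 43 genes the value was larger in HFD mice, against 44.9% of all genes, and over the alternatives this number ran from 8 to 15, with 14 under DESeq2 and under RLE factors.

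Cell cycle genes moved with both effects: 19 of 19 markers were called higher in ND mice and 18 of 19 in HFD mice. Their summed level was 497 to 606 CPM in ND_cont, 598 to 954 CPM in HFD_cont, 1477 to 1875 CPM in ND_PMA and 1590 to 2515 CPM in HFD_PMA, with no marker at 0. Leukocyte markers moved too, with 5 and 6 of 7 called higher and summed levels of 276 to 328, 236 to 261, 478 to 739 and 338 to 762 CPM in the same order. Neutrophil markers had 5 and 7 of 7 called higher, with median log2 fold changes of 3.82 and 4.13. They summed to 27.8 to 54.9 CPM in ND_cont, 40.5 to 68.6 CPM in HFD_cont, 110.1 to 335 CPM in ND_PMA and 331 to 1280 CPM in HFD_PMA, and 1 of the 8 listed was at 0 in all HFD_cont libraries. Of 9 macrophage markers 4 and 3 were called higher. Of 8 basal keratinocyte markers 2 were called higher and 3 lower in ND mice. In both diets Krt14 was called higher, and Krt15 and Dst lower. Basal markers summed to 16793 to 20535, 18748 to 19148, 19463 to 22543 and 20793 to 24461 CPM in the group order above. Adipocyte markers had 5 of 7 called lower in each diet, with medians of -0.86 and -0.87 and summed levels of 733 to 997, 479 to 733, 377 to 617 and 245 to 409 CPM. Chondrocyte markers had 2 and 5 of 8 called lower, with summed levels of 425 to 573, 309 to 375, 313 to 491 and 199 to 269 CPM. Skeletal muscle markers had 0 and 3 of 8 called lower. Fibroblast markers summed to 9076 to 11556, 5877 to 6940, 6841 to 9629 and 3995 to 6402 CPM. Col1a2 was called lower in both diets and Dcn in ND mice. Suprabasal keratinocyte markers summed to 7182 to 7597, 10776 to 13910, 5629 to 8276 and 8936 to 11284 CPM. Krt1 and Casp14 were called higher in ND mice, and none lower. In HFD mice the largest called changes were those of Lor, Flg and Krt10, all lower. The part of these in the results was not tested.

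**Figure D1:**
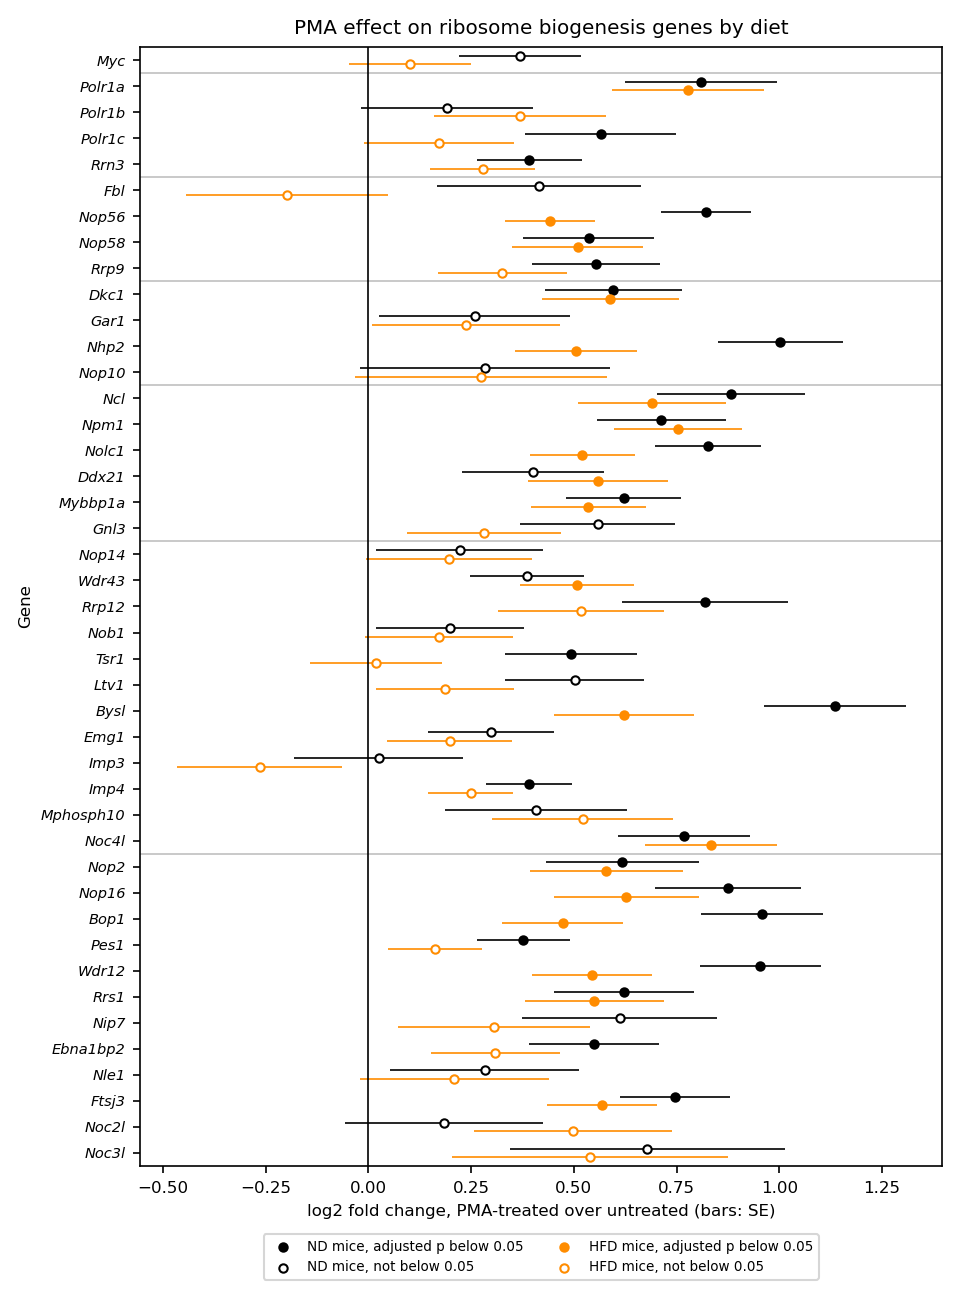
Log2 fold change of each of the 43 genes with PMA in ND mice (black) and HFD mice (orange), with the SE as bars, grouped by role in the order Myc, RNA polymerase I, box C/D, box H/ACA, chaperones, 40S and 60S. Filled points are the 25 and 19 genes with an adjusted p below 0.05, and only Fbl and Imp3 in HFD mice lie left of 0.

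**Figure D2:**
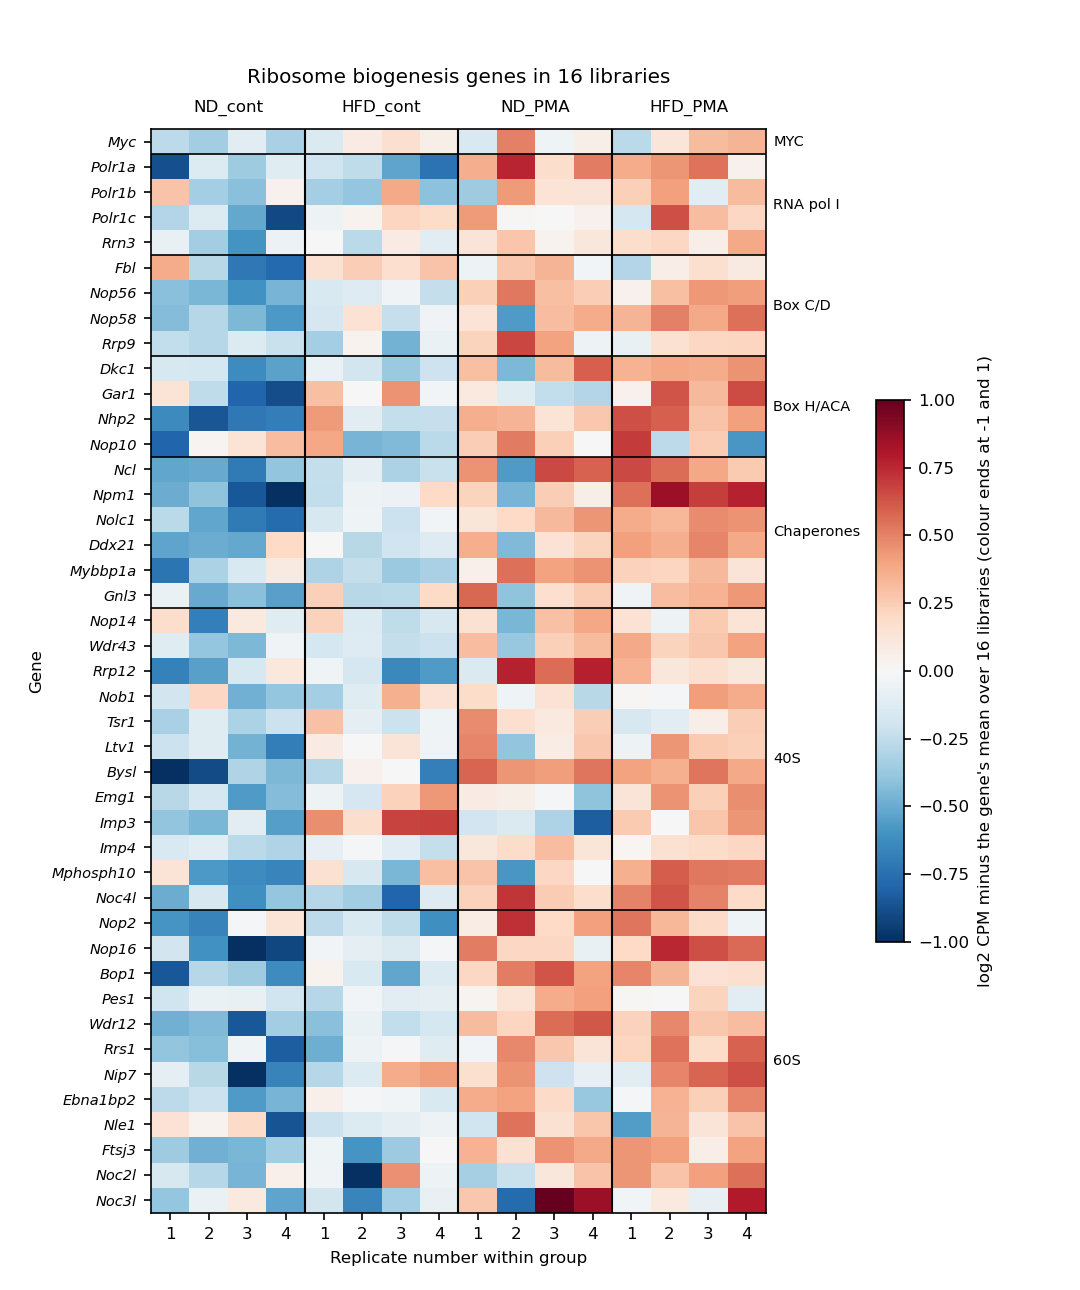
Log2 CPM of each gene (rows, by role) in each of the 16 libraries (columns) minus that gene's mean over all libraries. ND_cont columns are mostly blue and both PMA groups mostly red, with ND_PMA replicate 2 blue in part of its rows and HFD_cont red for Imp3.

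RNA polymerase I makes the ribosomal RNA precursor. Polr1a, its largest subunit (ENSMUSG00000049553, chr6:71909053-71984935, plus strand), had 22.1, 36.9, 31.7 and 37.3 CPM in the 4 ND_cont libraries, 35.3, 34.02, 28.1 and 24.3 CPM in HFD_cont, 52.01, 68.9, 45.7 and 57.8 CPM in ND_PMA and 52.4, 55.1, 59.1 and 41.7 CPM in HFD_PMA. Within each diet the PMA libraries were all above the untreated ones, with a log2 fold change of 0.81 ± 0.18 (adjusted p = 0.00537) in ND mice and 0.78 ± 0.19 (adjusted p = 0.00845) in HFD mice, and both calls held in all 8 fits without 1 library. Polr1c, a subunit shared with RNA polymerase III, rose in ND mice (0.57 ± 0.18, adjusted p = 0.0484), a call that was lost without ND_cont replicates 1, 3 and 4 and ND_PMA replicates 1, 2, 3 and 4 (adjusted p up to 0.16). Rrn3, the factor that brings the polymerase to its promoter, rose in ND mice (0.39 ± 0.13, adjusted p = 0.0486), a call that was lost without ND_cont replicates 2 and 3 and ND_PMA replicates 1, 2, 3 and 4 (adjusted p up to 0.224). Polr1b, the second-largest subunit, had log2 values of 0.19 ± 0.21 and 0.37 ± 0.21 with adjusted p = 0.636 and 0.301. By count, 3 of the 4 polymerase genes were called in ND mice and 1 of 4 in HFD mice.

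Box C/D snoRNPs place methyl groups on the ribose of ribosomal RNA. Nop56, a core protein of these particles (ENSMUSG00000027405, chr2:130274430-130279313, plus strand), had 109, 106, 95.8 and 105 CPM in ND_cont, 131, 134, 143 and 124 CPM in HFD_cont, 172, 209.7, 179.9 and 173 CPM in ND_PMA and 150.3, 179.6, 198 and 195 CPM in HFD_PMA. Every library of the other 3 groups was above every ND_cont library, and PMA and untreated libraries did not overlap within either diet. The PMA effect was 0.82 ± 0.11 (log2 ± SE, adjusted p = 3.61e-05) in ND mice and 0.44 ± 0.11 (adjusted p = 0.0105) in HFD mice, and the second call was lost without HFD_cont replicate 4 (adjusted p = 0.0565). Part of its exon sequence (8.1%) is shared with small RNA genes and with Idh3b, and the counts do not tell these apart.

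Nop58, the partner of Nop56, rose in both diets (0.54 ± 0.16, adjusted p = 0.0304 and 0.51 ± 0.16, adjusted p = 0.0411), and without any 1 of 7 of the 8 libraries these calls were lost (adjusted p up to 0.106 and 0.126). The exceptions were ND_PMA replicate 2 and HFD_cont replicate 2. In ND_PMA its values were 90.9, 55.9, 102 and 107 CPM, with replicate 2 the lowest. Rrp9, the specific protein of the snoRNP that guides early cuts, rose in ND mice (0.55 ± 0.16, adjusted p = 0.0217), a call that was lost without ND_cont replicates 1, 2 and 3 and ND_PMA replicates 2 and 3 (adjusted p up to 0.106). Fbl, fibrillarin, the methyltransferase itself, had 14.7, 9.35, 6.91 and 6.61 CPM in ND_cont, 12.6, 13.4, 12.7 and 13.8 CPM in HFD_cont, 10.9, 13.6, 14.3 and 11.1 CPM in ND_PMA and 9.23, 11.8, 12.7 and 12.02 CPM in HFD_PMA, and the groups overlapped. Its log2 values were 0.42 ± 0.25 in ND mice and -0.20 ± 0.25 in HFD mice, with adjusted p = 0.319 and 0.701. The role had 3 of 4 genes called in ND mice and 2 of 4 in HFD mice.

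Box H/ACA snoRNPs convert uridines of ribosomal RNA to pseudouridine, and the same proteins are part of telomerase. Nhp2 (ENSMUSG00000001056, chr11:51619735-51623714, plus strand) had 33.02, 28.3, 31.3 and 31.7 CPM in ND_cont, 68.8, 47.8, 43.4 and 43.7 CPM in HFD_cont, 66.00, 64.8, 56.3 and 61.99 CPM in ND_PMA and 80.3, 77.8, 62.5 and 68.1 CPM in HFD_PMA. All ND_cont libraries were below all others, and HFD_cont replicate 1 alone reached into the range of the PMA libraries. PMA raised it in ND mice (1.00 ± 0.15, adjusted p = 0.000141) and in HFD mice (0.51 ± 0.15, adjusted p = 0.031), and the second call was lost without HFD_cont replicates 2, 3 and 4 and HFD_PMA replicates 1 and 2 (adjusted p up to 0.133). Dkc1, dyskerin, the enzyme that makes pseudouridine, rose in ND mice (0.60 ± 0.17, adjusted p = 0.021) and HFD mice (0.59 ± 0.17, adjusted p = 0.0245). The first of these calls was lost without ND_cont replicates 3 and 4 and ND_PMA replicates 1, 3 and 4 (adjusted p up to 0.0898), and the second was lost without HFD_cont replicates 2, 3 and 4 and HFD_PMA replicate 2 (adjusted p up to 0.0805). Gar1 and Nop10, the other core proteins, had positive log2 values of 0.24 to 0.28 in the 2 diets and no call, at adjusted p from 0.544 to 0.657.

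Nucleolar chaperones and scaffold proteins had 4 of 6 genes called in ND mice and 5 of 6 in HFD mice. Ncl, nucleolin (ENSMUSG00000026234, chr1:86344719-86359400, minus strand), had 199, 201, 174 and 217 CPM in ND_cont, 242, 267, 229 and 244 CPM in HFD_cont, 388, 192, 450.1 and 429 CPM in ND_PMA and 450.2, 419.7, 373 and 341 CPM in HFD_PMA. ND_PMA replicate 2 lay among the ND_cont libraries and the other PMA libraries lay above all untreated ones. Ncl rose by 0.88 ± 0.18 (adjusted p = 0.00234) and 0.69 ± 0.18 (adjusted p = 0.015) on the log2 scale, the second call being one that was lost without HFD_PMA replicate 1 (adjusted p = 0.0507).

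Npm1, nucleophosmin (ENSMUSG00000057113, chr11:33152287-33163206, minus strand), had 148, 158, 116 and 101 CPM in ND_cont, 176, 201, 200.0 and 239 CPM in HFD_cont, 243, 151, 247 and 217 CPM in ND_PMA and 306, 377, 337 and 356 CPM in HFD_PMA. Every HFD_PMA library was above every library of the other 3 groups. Its PMA effects of 0.71 ± 0.16 (adjusted p = 0.00416) and 0.75 ± 0.16 (adjusted p = 0.00305) held in all 8 fits without 1 library in each diet.

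Nolc1, which escorts snoRNPs (ENSMUSG00000015176, chr19:46075863-46085530, plus strand), had 50.3, 42.2, 37.1 and 35.5 CPM in ND_cont, 54.01, 58.7, 52.00 and 59.4 CPM in HFD_cont, 65.7, 69.4, 75.6 and 82.00 CPM in ND_PMA and 78.4, 76.3, 84.1 and 82.8 CPM in HFD_PMA, with no overlap between untreated and PMA libraries. It rose by 0.83 ± 0.13 (adjusted p = 0.000196) and 0.52 ± 0.13 (adjusted p = 0.0104), in all 8 fits without 1 library in each diet. Mybbp1a, a nucleolar MYB-binding protein (ENSMUSG00000040463, chr11:72441355-72451768, plus strand), had 92.6, 124, 138 and 163 CPM in ND_cont, 124, 129.8, 119 and 123 CPM in HFD_cont, 159, 225, 203 and 209.9 CPM in ND_PMA and 179.6, 178, 192 and 168 CPM in HFD_PMA. ND_PMA replicate 1 was below ND_cont replicate 4, and in HFD mice the groups did not overlap. It rose from 129 ± 29.4 to 199 ± 28.2 CPM in ND mice (adjusted p = 0.00482) and from 124 ± 4.62 to 179 ± 9.86 CPM in HFD mice (adjusted p = 0.0153), and the second call was lost without HFD_cont replicates 3 and 4 and HFD_PMA replicate 2 (adjusted p up to 0.0624). The RNA helicase Ddx21 rose in HFD mice (0.56 ± 0.17, adjusted p = 0.0375), a call that was lost without HFD_cont replicates 2, 3 and 4 and HFD_PMA replicates 1, 2, 3 and 4 (adjusted p up to 0.103); its value in ND mice was 0.40 ± 0.17 (adjusted p = 0.142). Gnl3, nucleostemin, had 0.56 ± 0.19 (adjusted p = 0.0563) and 0.28 ± 0.19 (adjusted p = 0.395).

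Small subunit (40S) assembly factors had 5 of 12 genes called in ND mice and 3 of 12 in HFD mice. Bysl, bystin, which stays with the late 40S precursor (ENSMUSG00000023988, chr17:47599331-47611492, minus strand), had 23.8, 26.5, 40.1 and 36.1 CPM in ND_cont, 40.4, 50.8, 49.2 and 30.7 CPM in HFD_cont, 73.9, 66.99, 65.8 and 71.4 CPM in ND_PMA and 65.2, 63.2, 71.4 and 64.1 CPM in HFD_PMA. All PMA libraries were above all untreated libraries. Its effects were 1.13 ± 0.17 (adjusted p = 0.000153) in ND mice and 0.62 ± 0.17 (adjusted p = 0.0204) in HFD mice, and the second call was lost without HFD_cont replicates 1 and 4 and HFD_PMA replicates 2 and 3 (adjusted p up to 0.0948). Its exons share 9.4% of their bases with Ccnd3, a cyclin gene on the other strand, and the library method does not mark the strand.

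Noc4l, which works with Nop14 in the small subunit precursor (ENSMUSG00000033294, chr5:110648418-110653417, minus strand), had 46.6, 58.5, 42.9 and 50.1 CPM in ND_cont, 53.8, 51.6, 37.9 and 59.8 CPM in HFD_cont, 76.9, 108, 78.3 and 74.2 CPM in ND_PMA and 92.5, 101, 92.5 and 74.99 CPM in HFD_PMA. PMA and untreated libraries did not overlap, and the effects of 0.77 ± 0.16 (adjusted p = 0.00277) and 0.83 ± 0.16 (adjusted p = 0.00172) held in all 8 fits without 1 library in each diet. Rrp12, an export factor, rose in ND mice (0.82 ± 0.20, adjusted p = 0.00918) in all 8 such fits and had 0.52 ± 0.20 (adjusted p = 0.108) in HFD mice. Imp4 rose in ND mice (0.39 ± 0.10, adjusted p = 0.0155), a call that was lost without ND_cont replicate 3 and ND_PMA replicate 3 (adjusted p up to 0.0658). Tsr1 rose in ND mice too (0.49 ± 0.16, adjusted p = 0.047), but without any 1 of the 8 libraries it was not called (adjusted p up to 0.145), and 32.3% of its exon bases lie over Srr on the other strand. Wdr43 rose in HFD mice (0.51 ± 0.14, adjusted p = 0.0198), a call that was lost without HFD_cont replicates 3 and 4 and HFD_PMA replicate 1 (adjusted p up to 0.0582). The remaining 6 were called in neither diet: Nop14, Nob1 (the nuclease of the last cut), Ltv1, Emg1 (a methyltransferase), Imp3 and Mphosph10, with log2 values from 0.02 to 0.50 in ND mice and from -0.26 to 0.52 in HFD mice.

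Large subunit (60S) assembly factors had 8 of 12 genes called in ND mice and 6 of 12 in HFD mice. Pes1, Bop1 and Wdr12 form 1 complex that is needed to process the large subunit RNA. Bop1 (ENSMUSG00000022557, chr15:76452989-76477277, minus strand) had 46.4, 68.4, 65.1 and 53.9 CPM in ND_cont, 85.7, 75.2, 58.2 and 75.9 CPM in HFD_cont, 96.4, 119, 129 and 110.0 CPM in ND_PMA and 117, 106, 92.5 and 93.8 CPM in HFD_PMA, and rose by 0.96 ± 0.15 (adjusted p = 0.000182) and 0.47 ± 0.15 (adjusted p = 0.0405). PMA libraries were above untreated ones within each diet, and the call in HFD mice was lost without HFD_cont replicates 2, 3 and 4 and HFD_PMA replicates 1, 2 and 4 (adjusted p up to 0.179). Wdr12 (ENSMUSG00000026019, chr1:60069785-60098645, minus strand) had 29.7, 30.5, 23.03 and 32.5 CPM in ND_cont, 30.95, 39.6, 34.9 and 36.6 CPM in HFD_cont, 51.5, 48.1, 60.95 and 63.5 CPM in ND_PMA and 48.5, 57.7, 49.9 and 51.3 CPM in HFD_PMA, again with no overlap within a diet. It rose by 0.95 ± 0.15 (adjusted p = 0.000176) and 0.54 ± 0.15 (adjusted p = 0.0178), the second a call that was lost without HFD_cont replicates 1 and 3 and HFD_PMA replicate 2 (adjusted p up to 0.0758). Pes1 rose in ND mice with a smaller value (0.38 ± 0.11, adjusted p = 0.0326), a call that was lost without ND_cont replicates 1, 2, 3 and 4 and ND_PMA replicates 3 and 4 (adjusted p up to 0.105), and had 0.16 ± 0.11 (adjusted p = 0.428) in HFD mice.

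Ftsj3, an RNA methyltransferase of the pre-60S particle (ENSMUSG00000020706, chr11:106249142-106256079, minus strand), had 68.9, 63.4, 64.3 and 69.2 CPM in ND_cont, 85.6, 58.7, 68.6 and 88.02 CPM in HFD_cont, 112, 98.2, 121 and 115 CPM in ND_PMA and 119.6, 117, 92.3 and 117 CPM in HFD_PMA. PMA and untreated libraries did not overlap within a diet, and the effects of 0.75 ± 0.13 (adjusted p = 0.00074) and 0.57 ± 0.13 (adjusted p = 0.00767) held in all 8 fits without 1 library in each diet. Nop16 (ENSMUSG00000025869, chr13:54584185-54590090, minus strand) had 41.3, 30.7, 22.9 and 24.9 CPM in ND_cont, 46.00, 43.7, 42.4 and 46.1 CPM in HFD_cont, 66.7, 54.1, 53.96 and 44.5 CPM in ND_PMA and 53.8, 78.97, 73.1 and 69.4 CPM in HFD_PMA. It rose from 29.9 ± 8.24 to 54.8 ± 9.11 CPM in ND mice (adjusted p = 0.00217) and from 44.5 ± 1.81 to 68.8 ± 10.8 CPM in HFD mice (adjusted p = 0.0228), the second a call that was lost without HFD_cont replicates 2, 3 and 4 and HFD_PMA replicates 2 and 3 (adjusted p up to 0.0988).

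Nop2, a methyltransferase of the large subunit RNA, rose by 0.62 ± 0.19 (adjusted p = 0.0321) and 0.58 ± 0.19 (adjusted p = 0.047). The first call was lost without ND_cont replicates 1 and 2 and ND_PMA replicates 2 and 4 (adjusted p up to 0.142), and the second was lost without HFD_cont replicates 1, 2, 3 and 4 and HFD_PMA replicates 1, 2 and 3 (adjusted p up to 0.181). Rrs1, which helps load a separately transcribed ribosomal RNA onto the large subunit, rose by 0.62 ± 0.17 (adjusted p = 0.0186) and 0.55 ± 0.17 (adjusted p = 0.0388). Of these calls the first was lost without ND_cont replicates 2 and 4 and ND_PMA replicate 2 (adjusted p up to 0.0795), and the second was lost without HFD_cont replicates 1, 2, 3 and 4 and HFD_PMA replicates 2 and 4 (adjusted p up to 0.149). Ebna1bp2 rose in ND mice (0.55 ± 0.16, adjusted p = 0.0247), a call that was lost without ND_cont replicates 3 and 4 and ND_PMA replicates 1, 2 and 3 (adjusted p up to 0.105). Nip7, Nle1, Noc2l and Noc3l were called in neither diet, with log2 values of 0.18 to 0.68 in ND mice and 0.21 to 0.54 in HFD mice. Noc2l overlaps Samd11 on the other strand over 20.9% of its exon bases, and Noc3l had as few as 46 counts in a library.

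Myc itself (ENSMUSG00000022346, chr15:61985391-61990374, plus strand) had 92.03, 86.7, 102 and 87.8 CPM in ND_cont, 99.8, 117, 123 and 115 CPM in HFD_cont, 99.1, 156, 107 and 115 CPM in ND_PMA and 91.2, 119.9, 137 and 139 CPM in HFD_PMA. The groups overlapped in every comparison. Its PMA effect was 0.37 ± 0.15 (adjusted p = 0.116) in ND mice and 0.10 ± 0.15 (adjusted p = 0.752) in HFD mice, and the diet effect was 0.30 ± 0.15 (adjusted p = 0.322) in untreated and 0.03 ± 0.15 (adjusted p = 0.947) in PMA-treated skin. No call was made in any of the alternatives that left out 1 library. Myc RNA was measured 24 hours after PMA only.

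**Figure D3:**
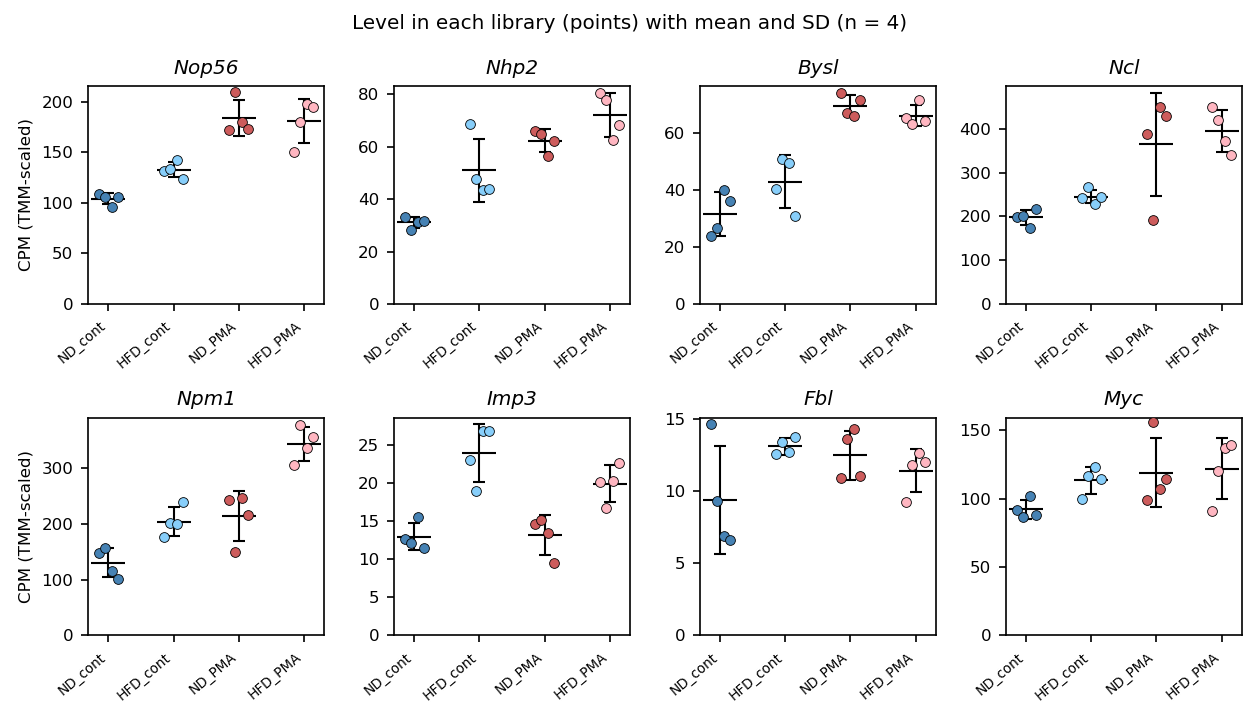
CPM of 8 genes in each library (points, n = 4 per group) with the mean (line) and SD (bars), each panel with its own axis from 0. Nop56, Nhp2, Bysl and Ncl are higher in both PMA groups, Npm1 is highest in HFD_PMA, Imp3 is higher in both HFD groups, and Fbl and Myc overlap between groups.

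Diet in untreated skin raised 3 of the 43 genes, Nhp2, Npm1 and Imp3, and lowered none, beside 2.87% of all genes called higher and 1.06% lower. The median log2 difference of HFD_cont from ND_cont was 0.24, against -0.02 over all genes, with 35 of 43 positive. Nhp2 differed by 0.71 ± 0.15 (adjusted p = 0.0103) in all 8 fits without 1 library. Npm1 differed by 0.64 ± 0.16 (adjusted p = 0.0245), a call that was lost without ND_cont replicates 3 and 4 and HFD_cont replicate 4 (adjusted p up to 0.0982). Imp3, a protein of the small subunit processome (ENSMUSG00000032288, chr9:56937475-56938398, plus strand), had 12.7, 12.2, 15.5 and 11.4 CPM in ND_cont and 23.1, 18.9, 26.8 and 26.9 CPM in HFD_cont, without overlap, and differed by 0.88 ± 0.20 (adjusted p = 0.0182), a call that was lost without ND_cont replicate 4 and HFD_cont replicates 3 and 4 (adjusted p up to 0.066). In 12 members every HFD_cont library was above every ND_cont library, which was so for 7.17% of all genes. The next smallest adjusted p values were those of Nolc1 (0.44 ± 0.13, adjusted p = 0.0606), Nop56 (0.35 ± 0.11, adjusted p = 0.0787) and Nop16 (0.57 ± 0.18, adjusted p = 0.0787), and DESeq2 called these 3 and Emg1 as well, 7 in all. Without the 4 libraries richest in hair genes the median was 0.23, and calls were lost over the whole table. That fit has 1 HFD_cont library. The count was 5 without ND_cont replicate 1, 1 without ND_cont replicate 4, 1 without HFD_cont replicate 4 and 1 with the prefix as a covariate. Of all genes, 4.44% were called higher with DESeq2 and 2.55% without ND_cont replicate 1. The shares were 1.44% without ND_cont replicate 4, 1.81% without HFD_cont replicate 4 and 0.926% with the prefix. Hair markers were higher in HFD_cont than in ND_cont libraries, as given with the library totals. Suprabasal keratinocyte markers summed to 10776 to 13910 CPM against 7182 to 7597 CPM, with 5 of 8 called higher. Fibroblast markers summed to 5877 to 6940 CPM against 9076 to 11556 CPM, with 5 of 8 called lower. Mitochondrial transcripts, read here as a sign of RNA quality, summed to 20634 to 28979 CPM against 14338 to 20811 CPM, with 4 of 17 called higher, 17 of 17 positive and a median of 0.59. Their part in the diet difference was not tested.

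Diet in PMA-treated skin raised Npm1 alone, 1 of 43 genes, and lowered none, beside 0.943% of all genes called higher and 1.26% lower. The Npm1 difference was 0.68 ± 0.16 (adjusted p = 0.0249), a call that was lost without ND_PMA replicate 4 and HFD_PMA replicate 2 (adjusted p up to 0.0674), and it was lost without the 4 libraries richest in hair genes too. Imp3 had 14.7, 15.1, 13.5 and 9.44 CPM in ND_PMA and 20.1, 16.7, 20.2 and 22.7 CPM in HFD_PMA, again without overlap, and a difference of 0.59 ± 0.20 (adjusted p = 0.138). The median over the 43 genes was 0.09, against -0.03 over all genes, and 27 were positive. In 6 members every HFD_PMA library was above every ND_PMA library, beside 3.91% of all genes. Fibroblast markers had 5 of 8 called lower, at 3995 to 6402 CPM summed in HFD_PMA against 6841 to 9629 CPM in ND_PMA. Chondrocyte markers had 4 of 8 called lower, suprabasal keratinocyte markers 3 of 8 higher, at 8936 to 11284 CPM against 5629 to 8276 CPM, and mitochondrial transcripts 1 of 17 higher, at 23033 to 31278 CPM against 13543 to 24497 CPM. The part of these in the Npm1 difference was not tested.

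The diet by PMA interaction is the difference between the 2 PMA effects. Its ND part compares RHP with RHS libraries, so a difference between diets and one of prefix cannot be told apart here. With edgeR none of the 43 genes was called, beside 0% of all genes called higher and 0.00568% lower, and DESeq2 called none of them. At an unadjusted p below 0.05 no member was higher and 5 were lower in HFD mice, namely Nop56, Nhp2, Bop1, Bysl and Tsr1, against 1.77% of all genes higher and 2.86% lower. The smallest p values were those of Nop56 (-0.38 ± 0.15, unadjusted p = 0.023) and Nhp2 (-0.50 ± 0.21, unadjusted p = 0.0291), both with an adjusted p of 0.999. The median difference was -0.14, against -0.04 over all genes, and 36 of 43 values were negative, where 44.9% of all genes were positive. With the prefix as a covariate, which HFD_cont replicate 1 alone allows, the median was -0.17 and 11 of 43 values were positive. Npm1 had a difference of 0.04 ± 0.22, so that its PMA effects in the 2 diets were 0.04 apart with an SE of 0.22.

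Levels per length can be compared between genes with 2 caveats. The deposited length covers all exons of a gene, and how reads that match several places were counted is not given. Npm1 had the highest level over the 16 libraries, at 83.8 CPM per kilobase, followed by Nhp2 at 47.2 and Myc at 40.4. Fbl, at 2.76 CPM per kilobase, and Noc3l, at 1.99, were the lowest. Genes called higher with PMA ranged from Npm1 at the top to Polr1a, whose mean was 3.59 CPM per kilobase. Fbl and Noc3l, below Polr1a, were called in neither diet.

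Other genes of the pathway, from lists of known factors, were counted in the same way. Among 39 other 40S factors, 8 (20.5%) were called higher with PMA in ND mice and 4 (10.3%) in HFD mice, with none lower, beside 8.96% and 7.34% of all genes, so that the share in HFD mice was near that of all genes. Wdr46, a small subunit processome protein, had 0.96 ± 0.14 (adjusted p = 0.000133) and 0.77 ± 0.14 (adjusted p = 0.00125), and Tbl3 had 0.79 ± 0.16 (adjusted p = 0.00245) and 0.55 ± 0.16 (adjusted p = 0.0314). Among 54 other 60S factors, 10 (18.5%) were called higher and 1 lower in ND mice, and 8 (14.8%) higher and none lower in HFD mice. Lyar, a nucleolar protein, rose from 13.9 ± 2.18 to 23.8 ± 1.05 CPM in ND mice (adjusted p = 0.0069) and from 15.8 ± 2.90 to 31.6 ± 4.28 CPM in HFD mice (adjusted p = 0.00118). The list medians were 0.29 and 0.23 for the 40S factors, and 0.31 and 0.24 for the 60S factors, in ND and HFD mice. Eif6, which keeps the new large subunit from joining too soon, was higher in HFD mice in untreated (0.55 ± 0.13, adjusted p = 0.025) and PMA-treated skin (0.52 ± 0.13, adjusted p = 0.0445).

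The RNA exosome, which trims ribosomal RNA ends, had 6 of 12 genes (50%) called higher in ND mice and 4 of 12 (33.3%) in HFD mice, with none lower. Exosc9 rose in ND mice (0.60 ± 0.17, adjusted p = 0.0216) and HFD mice (0.65 ± 0.17, adjusted p = 0.0137), as did the exosome cofactor Mphosph6 (0.91 ± 0.20, adjusted p = 0.00486 and 0.64 ± 0.20, adjusted p = 0.0425). Of 17 other RNA polymerase I genes 1 was called in ND mice, Tcof1, the treacle protein (0.72 ± 0.20, adjusted p = 0.0204), and none in HFD mice, which is 5.88% and 0%, below the shares of all genes. Polr1d, a subunit shared with RNA polymerase III, was higher with the high-fat diet in untreated skin, at 50.9 ± 8.44 against 29.4 ± 2.24 CPM (adjusted p = 0.00404).

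MYC shares its DNA site with other proteins that pair with MAX or MLX. Of 11 tested genes of the wider MYC network, not all of them such proteins, 2 were called higher and 1 lower with PMA in ND mice. Beside these, 8.96% and 3.99% of all genes were called higher and lower. In HFD mice 2 were called lower, beside 4.6% of all genes. Mxd3, a repressor partner seen in dividing cells, rose from 2.31 ± 1.21 to 8.43 ± 1.02 CPM (adjusted p = 0.00486), Mlx rose by 0.57 ± 0.15 (adjusted p = 0.0157), and Mga fell by 0.71 ± 0.20 on the log2 scale (adjusted p = 0.0241). In HFD mice Mycl, a MYC paralogue, fell from 91.4 ± 13.5 to 43.5 ± 12.8 CPM (adjusted p = 0.00591), and Mxd4 fell by 0.44 ± 0.12 on the log2 scale (adjusted p = 0.0204).

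**Figure D4:**
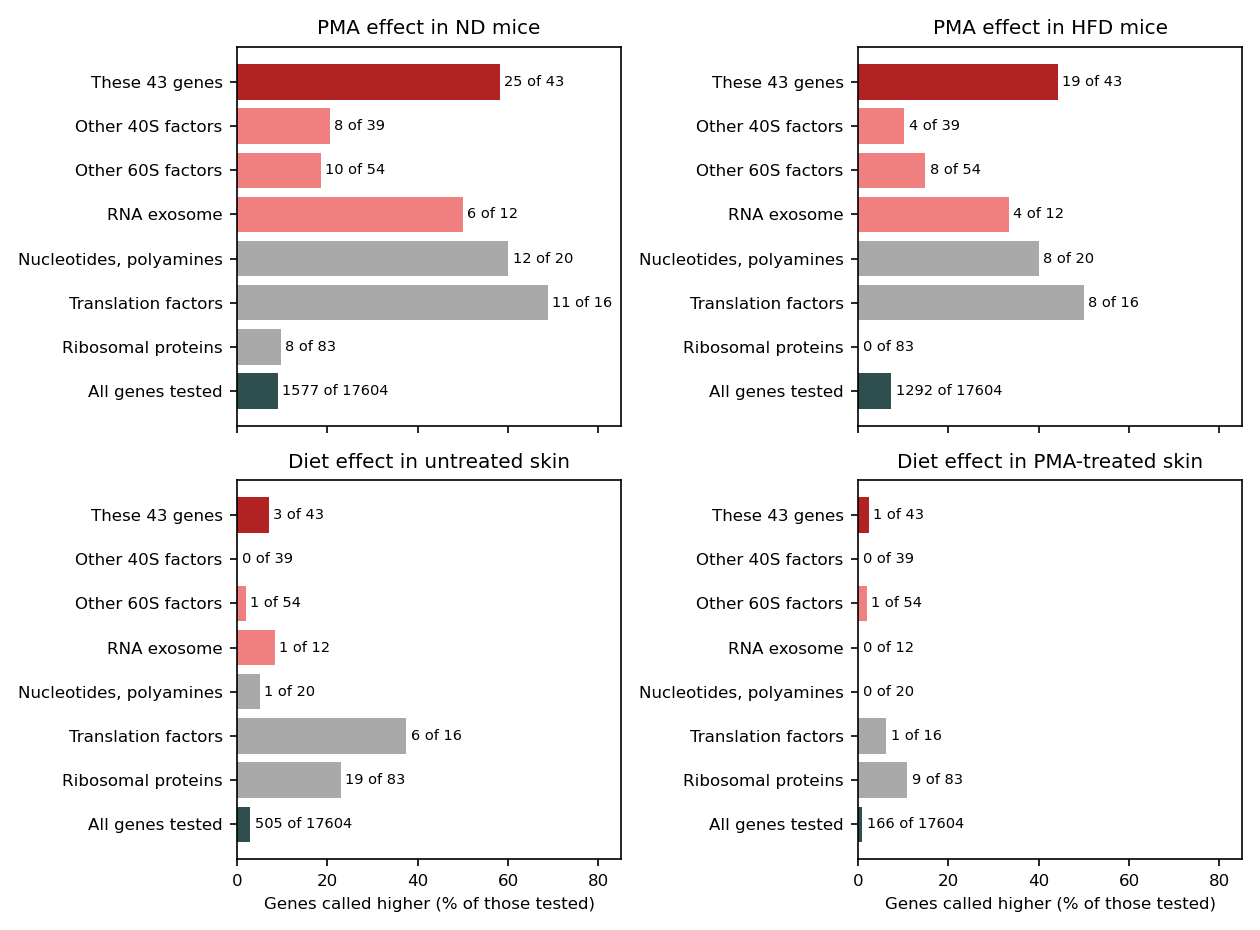
Share of genes called higher (adjusted p below 0.05), in percent of those tested, for the 43 genes (dark red), other pathway lists (light red), related lists (grey) and all genes tested (dark green-grey), in 4 panels for the 2 PMA effects and the 2 diet effects. The 43 genes reach 25 of 43 and 19 of 43 with PMA, and 3 and 1 with diet, while ribosomal proteins reach 8 and 0 with PMA, and 19 and 9 with diet.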

How the data were processed

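Total RNA of ear skin was made into libraries with the SMARTSeq v2 protocol, which does not mark strand, per the labels' protocols. The authors deposited raw counts per gene with a gene length column, in which 0 columns were left without a sample. The submitters' processing notes name STAR 2.3, featureCounts 1.5, GRCm38 and mm10; they do not say here how multi-mapped reads were treated. Spike-in RNA is named in the protocol and was not analysed here.

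Counts were tested with edgeR 4.0.16 (R 4.3.3): filterByExpr by group (minimum count 10, total 15), TMM factors, a robust quasi-likelihood fit of 4 group means over 16 libraries (12 residual degrees of freedom), and Benjamini-Hochberg adjustment over 17604 genes. DESeq2 1.42.0 and other alternatives are in the closing section. Levels in CPM are counts over the product of total and TMM factor, times 1000000. The SE was taken from the log2 fold change and the F statistic. Gene positions and exon overlaps come from the GENCODE M21 annotation (GRCm38). The scripts were checked on simulated counts.

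Members and gene lists were chosen with earlier results of these data known. Values in each library were to be given for the 12 members with the smallest adjusted p in any contrast and for Myc; Polr1a, Imp3, Fbl and, in ND_PMA, Nop58 were added after their values were seen. In other lists up to 3 called genes per contrast with a mean of at least 5 CPM could be named. The labels give no shared source for equal replicate numbers. Replicate libraries differed by more than counting noise, with a chi-square of 9.68 or more per degree of freedom.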

Additional observations from a re-analysis of the deposited data

Results flagged for a closer look

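In 9 of the 172 gene-by-group sets of 4 libraries, 1 library lay far from the other 3 by Dixon's test at the 95% level, which chance does in about 1 of 20 sets. High libraries were HFD_cont replicate 3 for Polr1b, at 54.6 CPM against 31.7 to 33.3 CPM, ND_PMA replicate 1 for Polr1c, at 53.4 CPM against 39.9 to 41 CPM, and HFD_cont replicate 1 for Nhp2, at 68.8 CPM against 43.4 to 47.8 CPM. ND_cont replicate 4 was high for Ddx21, at 83.9 CPM against 50.9 to 51.9 CPM, and ND_cont replicate 1 for Mphosph10, at 29.2 CPM against 16.8 to 17.8 CPM. HFD_PMA replicate 4 was high for Noc3l, at 12.9 CPM against 7.03 to 7.94 CPM. ND_PMA replicate 2 was high for Noc4l, at 108 CPM against 74.2 to 78.3 CPM, and low for Wdr43, at 91.7 CPM against 141 to 148 CPM. HFD_PMA replicate 3 was low for Ftsj3, at 92.3 CPM against 117 to 120 CPM.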

How the results depend on the processing

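No called value changed sign under the alternatives given here. Members called higher with PMA in ND mice were 25 in the fit reported. They were 3 with the library ID prefix as a covariate and 14 with only the 2 groups compared. Beside these, 2.2% and 6.63% of all genes were called higher. For diet in untreated skin 3 became 7 with DESeq2 and 1 with the prefix, beside 4.44% and 0.926% of all genes. Without the 4 libraries richest in hair genes, which leaves 1 HFD_cont library, calls were lost over the whole table. The medians of the 43 genes were then 0.52 for PMA in ND mice and 0.42 for PMA in HFD mice. For diet they were 0.23 in untreated and 0.16 in PMA-treated skin. The other settings (DESeq2, RLE and upper-quartile factors, 2 low-count filters, mitochondrial rows left out) gave 18 to 24 and 13 to 19 calls for the 2 PMA effects, within 1.5 times. Beside these, 4.25% to 10.7% and 3.72% to 9.41% of all genes were called higher. Leaving out 1 library gave 16 to 22, 7 to 15, 1 to 5, 0 to 1 and 0 calls in the order PMA in ND, PMA in HFD, diet untreated, diet with PMA and interaction. Shares of all genes called higher were then 6.55% to 7.66%, 4.22% to 6.8%, 1.44% to 2.69%, 0.348% to 0.925% and 0%. Diet with PMA lost its call without ND_PMA replicate 4 and without HFD_PMA replicate 2. The 2 sets that left out hair-rich libraries or RHS libraries were chosen after seeing the data and the cause of these changes was not tested. The deviations of same-numbered libraries had correlations from -0.07 to 0.20, and in no comparison were all 4 above 0.1. For PMA in HFD mice all 4 were positive (0.01 to 0.20) and 3 of 4 were highest with their own number, a hint from the data and not the design. With the replicate number as a block 20, 16, 3, 1 and 0 members were called. Beside these, 8.53%, 6.86%, 2.81%, 0.863% and 0% of all genes were called higher. Depth is least for Noc3l, Nop10 and Fbl, with as few as 46, 43 and 59 counts in a library.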

Other observations

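Genes that supply nucleotides, or that work with ribosomes, were counted in the same way. Of 20 genes of nucleotide and polyamine synthesis, 12 (60%) were called higher with PMA in ND mice and 8 (40%) in HFD mice, with none lower, beside 8.96% and 7.34% of all genes. Cad, which starts pyrimidine synthesis, rose from 29.5 ± 10.1 to 84.7 ± 15.2 CPM (adjusted p = 0.000172) and from 41.5 ± 14.1 to 78.05 ± 11.8 CPM (adjusted p = 0.0121), and Impdh1, of guanine nucleotide synthesis, rose by 1.39 ± 0.22 (adjusted p = 0.00019) and 1.33 ± 0.22 (adjusted p = 0.000408). Of 16 translation factors, 11 and 8 were called higher with PMA, and 6 (37.5%) with diet in untreated skin, beside 2.87% of all genes. Eif3b had 1.17 ± 0.17 (adjusted p = 6.95e-05) and 0.84 ± 0.16 (adjusted p = 0.00194) with PMA, and Eef1b2 had 0.90 ± 0.12 (adjusted p = 0.000268) with diet in untreated skin.

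Cytosolic ribosomal protein genes, 83 tested, had the most calls with diet in untreated skin: 19 (22.9%) were called higher there, beside 2.87% of all genes, and 9 (10.8%) with diet in PMA-treated skin, beside 0.943%. With PMA 8 (9.64%) were called higher in ND mice and 0 in HFD mice, beside 8.96% and 7.34%, so that the share in ND mice was near that of all genes. With DESeq2 and with upper-quartile factors 1 was called lower with PMA in HFD mice. Rps2 had 252 ± 24.6 CPM in ND_cont and 516 ± 36.3 CPM in HFD_cont (adjusted p = 2.79e-05). Many of these genes have near-identical copies, so their counts are uncertain. Of 14 snoRNA host genes 3 (21.4%) were called higher with PMA in ND mice, beside 8.96% of all genes. The list went both ways, with 7 of 14 positive and a median log2 fold change of -0.13. The 3 were Zfas1 (0.97 ± 0.25, adjusted p = 0.0118), Snhg4 (0.72 ± 0.23, adjusted p = 0.0418) and Snhg5 (0.62 ± 0.18, adjusted p = 0.0262). With PMA in HFD mice Snhg20 was called lower (-0.98 ± 0.24, adjusted p = 0.0109), and with diet in untreated skin Zfas1 was called higher (1.18 ± 0.25, adjusted p = 0.00985). The ribosomal RNA row Rn18s-rs5 was at 2859 ± 609 CPM in ND_cont and 4782 ± 526 CPM in HFD_cont (adjusted p = 0.0044). With PMA it was at 2911 ± 443 CPM in ND mice (adjusted p = 0.938) and fell to 3374 ± 263 CPM in HFD mice (adjusted p = 0.0229). Gm26917, listed with it as an RNA row derived from ribosomal RNA, rose with PMA in ND mice (0.45 ± 0.10, adjusted p = 0.00474) and was higher with diet in untreated skin (0.74 ± 0.10, adjusted p = 0.000268). How multi-mapped reads were treated is not given, so neither row is read here as a measure of ribosomal RNA.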
